A study of Mus musculus with 6 samples.

Results

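The genes described here mark the endothelium, the cell layer that lines blood and lymph vessels, and were chosen by name from a list of 41 symbols covering cell junctions, transcription factors, capillary, arterial, venous and lymphatic identity, and vessel signalling. Of the 41, 40 had a probe set that the array annotation pairs with that gene alone, among 22180 genes measured. Rasip1, a Ras-interacting adaptor, has its probe set in common with Izumo1 and is not described. No listed gene had more than 1 usable probe set, and none was removed for low signal.

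RNA came from heart cells of 1-day-old C57BL/6 mice, enriched for cardiomyocytes by letting faster-attaching cells settle, then held for 12 h at 2% O2, 5% CO2 and 93% N2. FGF21, a hormone that belongs to the fibroblast growth factors and circulates in blood, was present at 1 µg/ml in 3 samples and absent from the 3 controls. All 6 samples were hypoxic, the strain was the same throughout, and each sample was read on 1 Affymetrix Mouse Gene 2.0 ST array. The labels call the samples biological replicates 1 to 3 without saying whether litters or cultures were separate, so p-values here reflect only how far these arrays scatter, part of which may be technical. The submitters were looking for genes whose expression FGF21 alters under hypoxia. How many hearts went into a sample is not given in the labels.

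Endothelial cells hold each other through VE-cadherin (Cdh5), PECAM1 and ESAM, and their identity is kept by transcription factors of the ETS family, such as ERG and FLI1, and of the SOXF group, SOX7, SOX17 and SOX18. Capillary, arterial, venous and lymphatic endothelium differ in the receptors and ligands they carry. Arterial cells use Notch signalling and ephrin-B2, venous cells EphB4, and lymphatic cells PROX1 and LYVE1. The heart's capillaries lie beside every myocyte, so a primary heart culture usually carries some endothelial cells over.

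The sequences below show the DNA directly upstream of 4 of the 7 listed genes that were lower with FGF21 and had a promoter in the RefSeq table (build GRCm38.p6). That of Efnb2, which was higher, is also shown. Each run is the 250 bases before the annotated start, read 5′ to 3′ on the gene's strand. Capitals mark GGAA, or TTCC for the same motif on the opposite strand, the core bound by ETS factors.
Emcn (chr3:137340828-137341077, plus strand): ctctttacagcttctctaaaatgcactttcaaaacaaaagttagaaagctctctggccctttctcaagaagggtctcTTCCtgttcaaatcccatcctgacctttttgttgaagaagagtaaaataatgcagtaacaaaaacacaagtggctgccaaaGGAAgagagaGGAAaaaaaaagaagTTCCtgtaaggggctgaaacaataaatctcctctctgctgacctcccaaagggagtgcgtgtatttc
Cd34 (chr1:194938571-194938820, plus strand): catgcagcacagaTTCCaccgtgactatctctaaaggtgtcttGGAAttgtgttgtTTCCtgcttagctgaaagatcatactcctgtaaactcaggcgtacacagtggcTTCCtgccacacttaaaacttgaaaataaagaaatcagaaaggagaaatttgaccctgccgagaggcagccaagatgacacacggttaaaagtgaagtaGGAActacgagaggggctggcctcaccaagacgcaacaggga
Robo4 (chr9:37401722-37401971, plus strand): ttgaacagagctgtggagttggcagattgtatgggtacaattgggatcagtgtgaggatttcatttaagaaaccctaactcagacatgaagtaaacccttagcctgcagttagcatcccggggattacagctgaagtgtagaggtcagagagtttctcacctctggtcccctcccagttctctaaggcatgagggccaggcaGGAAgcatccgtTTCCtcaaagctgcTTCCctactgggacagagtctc
Adgrl4 (chr3:151437632-151437881, plus strand): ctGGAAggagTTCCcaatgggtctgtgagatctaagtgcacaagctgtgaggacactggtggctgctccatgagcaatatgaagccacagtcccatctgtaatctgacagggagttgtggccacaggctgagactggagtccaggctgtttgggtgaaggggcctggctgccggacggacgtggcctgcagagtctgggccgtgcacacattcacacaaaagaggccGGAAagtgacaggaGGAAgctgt
Efnb2 (chr8:8661243-8661492, minus strand): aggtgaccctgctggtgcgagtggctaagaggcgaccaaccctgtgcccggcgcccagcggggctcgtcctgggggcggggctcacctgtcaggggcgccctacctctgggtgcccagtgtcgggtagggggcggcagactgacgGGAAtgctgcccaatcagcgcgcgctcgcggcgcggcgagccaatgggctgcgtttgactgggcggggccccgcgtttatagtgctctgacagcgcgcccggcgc

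The table held promoters of 21 of the 41 genes. Either strand of the GGAA core occurs in 93.5% of all 32841 promoters of this length, so its presence sets nothing apart, and Efnb2 has 1 match where Emcn and Adgrl4 have 4 each, Cd34 5 and Robo4 3. The longer motif AGGAAG, an ERG-type site that contains GGAA, was found on either strand in 6 of 10 promoters (60%) of the 7 genes with lower values that the table covers. It was found in 5 of 17 promoters (29.4%) of the 13 other genes of the list that were measured and in 29.5% of all promoters. The SOX-type hexamers ACAAAG and ACAATG were in 0 and 1 of the same 10 promoters, against 16.5% and 10.7% of all promoters. Among the 17 promoters of the other genes they were in 4 and 1. Several promoters belong to 1 gene (3 for Erg), and a match describes letters in this window, not binding. The 4 lower genes shown above each have AGGAAG, and Efnb2 has 0 matches. Of the lower genes not shown, Dll4 has 0 matches, and Erg and Adgrf5 have promoters with and without a match.

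Most of the endothelial genes had lower values with FGF21, by modest amounts. Of the 40 measured, 32 (80%) had a difference below 0 against 52.2% of all genes, and the median log2 difference was -0.16 against -0.01 over all genes. At an unadjusted limma p under 0.05, 19 of the 40 (47.5%) were lower, where 5.11% of all 22180 genes were, and 2 were higher, where 6.59% were. In 21 of the 40 (52.5%) each FGF21 array lay below each control array, against 8.14% of all genes. No gene of the list, and 0 of all 22180, passed an adjusted p of 0.05 over all genes by limma, and an ordinary equal-variance statistic also gave 0, while 2594 genes had an unadjusted limma p under 0.05. "Lower" and "higher" below therefore refer to the unadjusted threshold, and the 19 lower genes had limma adjusted p-values from 0.177 to 0.404. At an unadjusted p under 0.01, 13 of the 40 were lower, against 1.23% of all genes. The list was chosen with earlier results of these data known, so its counts are not independent evidence of a direction.

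The size of the gap depended on the replicate. The mean over the 40 genes was 6.97, 7.08 and 7.07 on the FGF21 arrays and 7.27, 7.20 and 7.14 on the controls, while the mean over all genes stayed between 6.407 and 6.412 on all 6. FGF21 replicate 1 was the lowest array for 14 of the 19 lower genes and control replicate 1 the highest for 11. Leaving out any 1 array left between 15 and 21 genes lower, and 15 of the 19 stayed lower in all 6 such fits. With replicate 1 of both groups left out, an alternative added after the data were seen, 8 of the 19 were still lower (all genes, 5.95%) and the median was -0.12. With an ordinary equal-variance statistic in place of limma's, 10 were lower, against 3.86% of all genes. The 8 were Cdh5, Erg, Emcn, Gpihbp1, Cd34, Adgrl4, Mmrn2 and Lyve1. In a bulk sample, fewer endothelial cells and less of these RNAs per cell cannot be told apart.

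**Figure D1:**
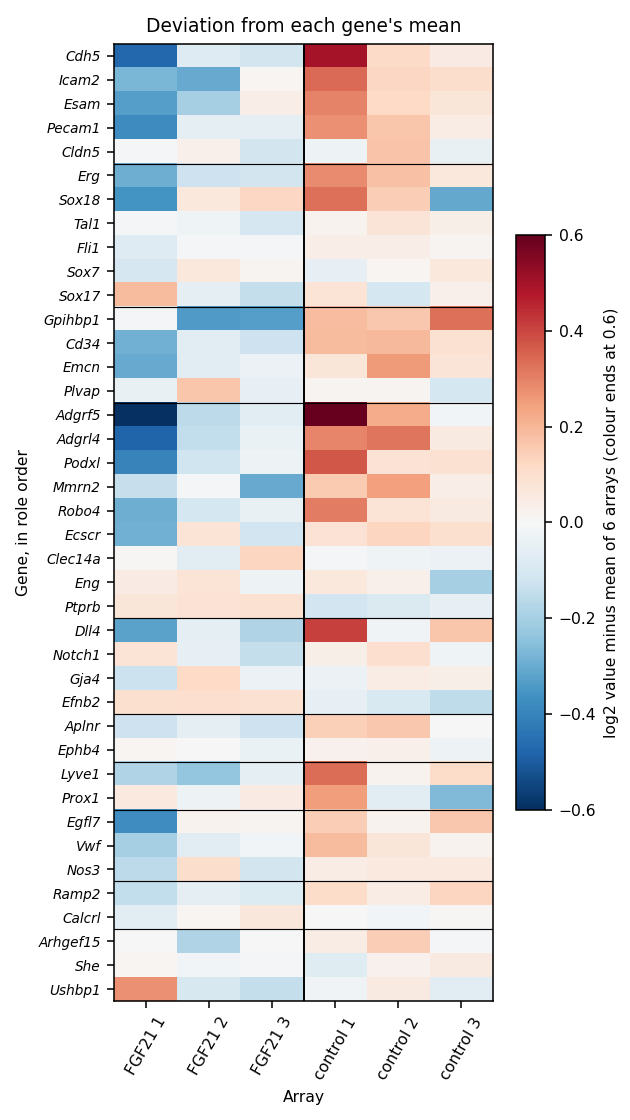
Deviation of each of the 40 genes from its own mean over the 6 arrays (log2 scale, colour ends at 0.6), with genes in rows by role and arrays in columns. Blue on the 3 FGF21 arrays and red on the controls is densest for the junction, capillary and surface receptor genes, strongest on FGF21 replicate 1 and control replicate 1, and inverted for Ptprb and Efnb2.

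Junction genes of the list were lower, with 1 exception. Of 5 measured, 4 were lower, and the median was -0.33. Over all genes, 5.11% were lower and 6.59% higher, which stands beside the counts of every role below. Cdh5, the cadherin of endothelial adherens junctions (probe set 17504399), read 8.99, 9.39 and 9.36 on the FGF21 arrays and 9.96, 9.58 and 9.52 on the controls. The highest FGF21 array lay below the lowest control, and the means of 9.25 ± 0.219 (SD, n = 3) and 9.69 ± 0.242 differed by -0.44 ± 0.13 on the log2 scale (SE), or 1.36-fold lower (95% interval 1.10 to 1.67). The difference was -0.18 with replicate 1 of both groups left out. Icam2, an adhesion molecule that binds leukocyte integrins, read 6.31, 6.28 and 6.60 against 6.93, 6.71 and 6.69. Its groups were apart too, and the difference of -0.38 ± 0.10 (SE) had the smallest p of the role (limma p of 0.00348, adjusted p of 0.226). Pecam1, which joins neighbouring endothelial cells, read 7.96, 8.29 and 8.29 against 8.61, 8.51 and 8.38, a difference of -0.32 ± 0.10. It was -0.21 without FGF21 replicate 1 and -0.16 with replicate 1 of both groups left out. Esam, an immunoglobulin-type adhesion molecule of tight junctions, differed by -0.33 ± 0.10. Cldn5, the claudin of endothelial tight junctions, did not follow: it read 6.33, 6.38 and 6.23 against 6.31, 6.51 and 6.30, the groups overlapped, and the difference was -0.06 (95% interval -0.24 to 0.11).

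Among 6 transcription factor genes, Erg alone was lower, where 5.11% of all genes were, and the median of the 6 was -0.08. Erg, an ETS factor that maintains endothelial identity, read 6.57, 6.74 and 6.76 with FGF21 and 7.15, 7.04 and 6.93 without. Every FGF21 array was below every control, and the difference was -0.35 ± 0.08 (SE, limma adjusted p of 0.191), a 1.27-fold lower level. Fli1, the closest ETS relative of Erg, is also expressed in blood cells. It read 8.49, 8.55 and 8.55 against 8.60, 8.60 and 8.57, a separation of the groups by a much smaller amount (-0.06, 95% interval -0.20 to 0.07). With quantile normalization applied again the difference was -0.13, past the unadjusted threshold. The interval of Erg (-0.53 to -0.17) and that of Fli1 overlap, and their difference was not tested. Sox17, the SOXF factor of arterial endothelium, read 7.14, 6.89 and 6.81 against 7.03, 6.84 and 6.98, so the groups were intermixed, with a difference of -0.00 (interval -0.21 to 0.20). Sox7 differed by -0.02 (-0.17 to 0.14). Sox18 differed by -0.11, but its interval ran from -0.48 to 0.26, since it read 5.25 on FGF21 replicate 1 and 5.29 on control replicate 3. Tal1, a basic helix-loop-helix factor of blood and endothelial progenitors, differed by -0.09 (-0.23 to 0.05), with groups that did not overlap, and passed the unadjusted threshold with the ordinary equal-variance statistic.

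Of 4 genes of capillary endothelium, 3 were lower, where 5.11% of all genes were. Gpihbp1, which carries lipoprotein lipase across capillary endothelium, read 7.55, 7.21 and 7.23 with FGF21 and 7.74, 7.72 and 7.89 without. All FGF21 values lay below the controls, although replicate 1, the lowest array for most genes, was here the highest of the 3. The difference of -0.45 ± 0.10 (SE), 1.37-fold lower (95% interval 1.18 to 1.59), had the smallest p of the whole list (limma p of 0.000945, adjusted p of 0.177). It was -0.58 with replicate 1 of both groups left out. Cd34, a sialomucin of capillary endothelium and of some stromal cells, differed by -0.32 ± 0.07, and Emcn, the mucin endomucin of capillaries and veins, by -0.27 ± 0.09. Without control replicate 2, Emcn no longer passed p 0.05. Plvap, which forms the diaphragms of fenestrae and caveolae, read 6.90, 7.11 and 6.89 against 6.96, 6.96 and 6.84, with overlapping groups and a difference of 0.05 (interval -0.13 to 0.22).

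The 9 surface receptors and matrix-bound proteins split, with 6 lower, 1 higher and 2 past neither threshold. Of all genes, 5.11% were lower and 6.59% higher. Adgrf5, an adhesion G-protein-coupled receptor, had the widest gap of the 40 genes: it read 7.37, 7.89 and 7.98 with FGF21 and 8.74, 8.27 and 8.03 without. The groups did not overlap, but FGF21 replicate 3 and control replicate 3 lay close, and the difference of -0.60 ± 0.19 (SE, 1.51-fold lower, 95% interval 1.13 to 2.03) became -0.40 without control replicate 1 and -0.21 with replicate 1 of both groups left out. Adgrl4, a related receptor of sprouting endothelium, read 7.39, 7.72 and 7.83 against 8.16, 8.19 and 7.92, groups that were apart, with a difference of -0.45 ± 0.12. Podxl, an anionic sialomucin of the luminal surface that other epithelia also carry, differed by -0.37 ± 0.11. Mmrn2, an extracellular matrix glycoprotein of the vessel wall that binds Clec14a, differed by -0.30 ± 0.09, and Robo4, a roundabout receptor of endothelium, by -0.29 ± 0.09. Ecscr, a small endothelial surface protein, differed by -0.21 ± 0.09, and by -0.12 without FGF21 replicate 1. Its p stayed under 0.05 in only 1 of the 6 fits that leave out an array.

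The other surface genes did not share that direction. Ptprb, the phosphatase VE-PTP that opposes TIE2 and junctional phosphorylation, read 8.62, 8.64 and 8.64 with FGF21 and 8.44, 8.47 and 8.51 without. Every FGF21 array was above every control, and the difference was 0.17 ± 0.06 (SE, limma adjusted p of 0.339), and 0.09, past no threshold, when quantile normalization was applied again. With replicate 1 of both groups left out, only 1 of the 2 higher genes, Ptprb and Efnb2, was still higher. Eng, the TGF-beta co-receptor endoglin, which fibroblasts also express, read 9.40, 9.43 and 9.32 against 9.42, 9.39 and 9.16. Those groups overlapped, with a difference of 0.07 (95% interval -0.11 to 0.25). Clec14a, a lectin-type receptor of endothelium, differed by 0.05 (-0.10 to 0.20).

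**Figure D2:**
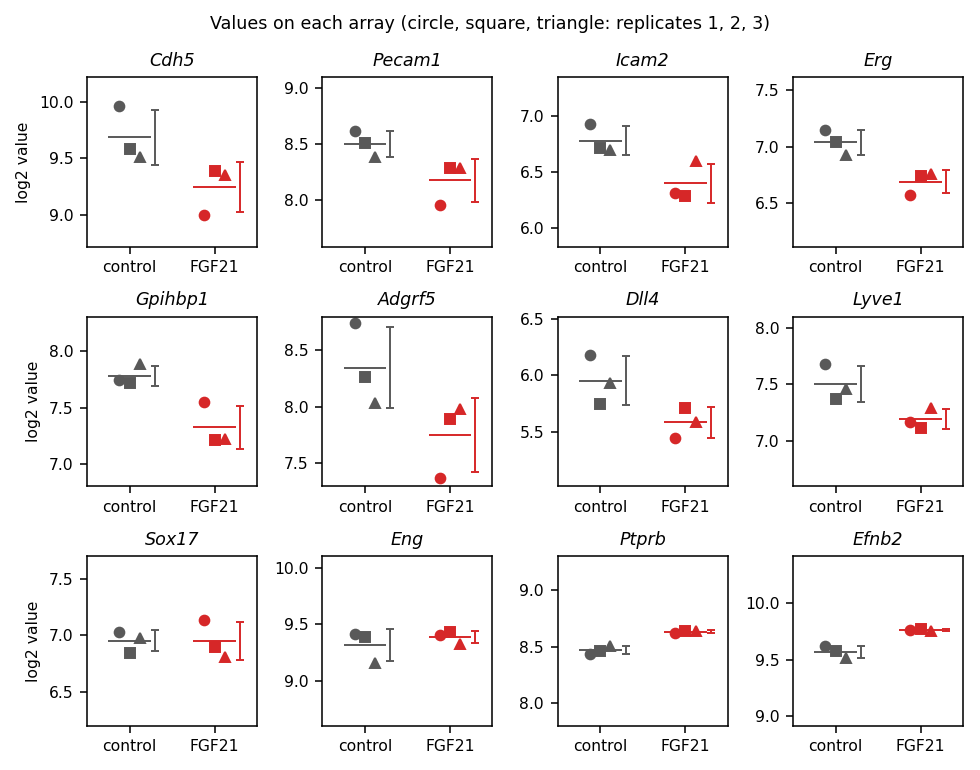
Log2 values of 12 endothelial genes on each array, with controls in grey and FGF21 in red, circle, square and triangle for replicates 1, 2 and 3, a line at the mean and a bar for the SD beside it; every panel spans the same range. In the upper 2 lines of panels all FGF21 points lie below all control points, in Sox17 and Eng they overlap, and in Ptprb and Efnb2 they lie above.

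Arterial genes went in different directions. Dll4, the Notch ligand of arterial and tip cells, read 5.44, 5.71 and 5.59 with FGF21 and 6.18, 5.75 and 5.93 without. The groups were apart by a narrow margin (5.71 against 5.75), and the difference was -0.37 ± 0.11 (SE, 1.29-fold lower). Efnb2, the ephrin-B2 ligand of arterial endothelium, also found on mural and other cells, read 9.76, 9.77 and 9.76 against 9.62, 9.58 and 9.52. Here the FGF21 arrays were all higher, by 0.19 ± 0.06 (1.14-fold, limma adjusted p of 0.298), and the difference was 0.22 with replicate 1 of both groups left out. Notch1, the receptor that many cell types carry, differed by -0.07 (95% interval -0.24 to 0.10), and Gja4, the arterial gap junction protein connexin 37, by -0.03 (-0.20 to 0.14). The intervals of Dll4 (-0.62 to -0.13) and Efnb2 (0.06 to 0.33) did not overlap.

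Of the venous pair, Aplnr, the apelin receptor, was lower and Ephb4, the receptor of ephrin-B2, was not. Aplnr read 5.86, 5.93 and 5.86 with FGF21 and 6.13, 6.15 and 5.98 without. The difference was -0.20 ± 0.07 (SE), with groups apart, and its p passed 0.05 in 5 of 6 fits that leave out an array, the exception being without control replicate 2. Ephb4 read 7.78, 7.77 and 7.73 against 7.80, 7.80 and 7.74, a difference of -0.02 with a narrow interval (-0.15 to 0.12).

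The lymphatic pair split in the same way. Lyve1, the hyaluronan receptor of lymphatic endothelium and of a class of tissue macrophages, read 7.17, 7.12 and 7.29 with FGF21 and 7.68, 7.37 and 7.46 without. The groups did not overlap, and the difference was -0.31 ± 0.09 (SE, 1.24-fold lower). Prox1, the transcription factor that sets lymphatic identity and that cardiomyocytes also express, read 7.72, 7.63 and 7.71 against 7.91, 7.60 and 7.39. It was steady across FGF21 arrays and scattered across controls, and the difference was 0.05. Leaving out control replicate 3 gave -0.07, and leaving out control replicate 1 gave 0.19, past the unadjusted threshold. Beside Lyve1, 12 macrophage and leukocyte markers were read, where 5.11% of all genes were lower and 6.59% higher. Of the 12, 1 was lower (Cd68, a lysosomal protein, by -0.20) and 1 higher (Ptprc, the leukocyte antigen CD45, by 0.20). The mean of that marker list ranged from 7.48 to 7.64 with FGF21 and from 7.55 to 7.58 without, and its part in the result for Lyve1 was not tested.

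Secreted proteins and enzymes had differences below 0 in 3 of 3 genes, of which Vwf alone was lower. Vwf, the clotting glycoprotein stored in endothelial granules and also in platelets, read 6.12, 6.25 and 6.30 with FGF21 and 6.51, 6.39 and 6.34 without, a difference of -0.19 ± 0.07 (SE). The groups were apart by little, and p missed 0.05 without FGF21 replicate 1, control replicate 1 or control replicate 2. Egfl7, a secreted factor that guides tube formation, differed by -0.22 ± 0.11 (95% interval -0.46 to 0.01), drawn down by 7.10 on FGF21 replicate 1 where the other FGF21 arrays read 7.50 and 7.49. It was past the unadjusted threshold without FGF21 replicate 2 (-0.29) or 3 (-0.29), and with quantile normalization applied again (-0.28). Nos3, the endothelial nitric oxide synthase, read 6.39, 6.65 and 6.44 against 6.59, 6.60 and 6.60, a difference of -0.11 (-0.28 to 0.07) that became -0.19, past that threshold, without FGF21 replicate 2. Of 5 measured platelet and megakaryocyte markers, 0 were lower and 0 higher, where 5.11% and 6.59% of all genes were.

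The adrenomedullin receptor consists of Calcrl, the receptor proper, and Ramp2, the accessory protein that directs it towards adrenomedullin. Ramp2 read 6.27, 6.36 and 6.34 with FGF21 and 6.53, 6.46 and 6.55 without, apart in every array, with a difference of -0.19 ± 0.06 (SE). Calcrl read 8.24, 8.32 and 8.37 against 8.30, 8.29 and 8.31, and its difference of 0.01 (95% interval -0.13 to 0.15) was near 0. The adaptors inside the cell showed no call: Arhgef15 read 6.18, 6.00 and 6.18 against 6.22, 6.33 and 6.17, overlapping groups with a difference of -0.12 (-0.29 to 0.05). She, an SH2-domain adaptor, read 5.19, 5.16 and 5.17 against 5.10, 5.20 and 5.23 and differed by -0.00 (-0.14 to 0.14). Ushbp1 differed by 0.02 (-0.21 to 0.26). 

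**Figure D3:**
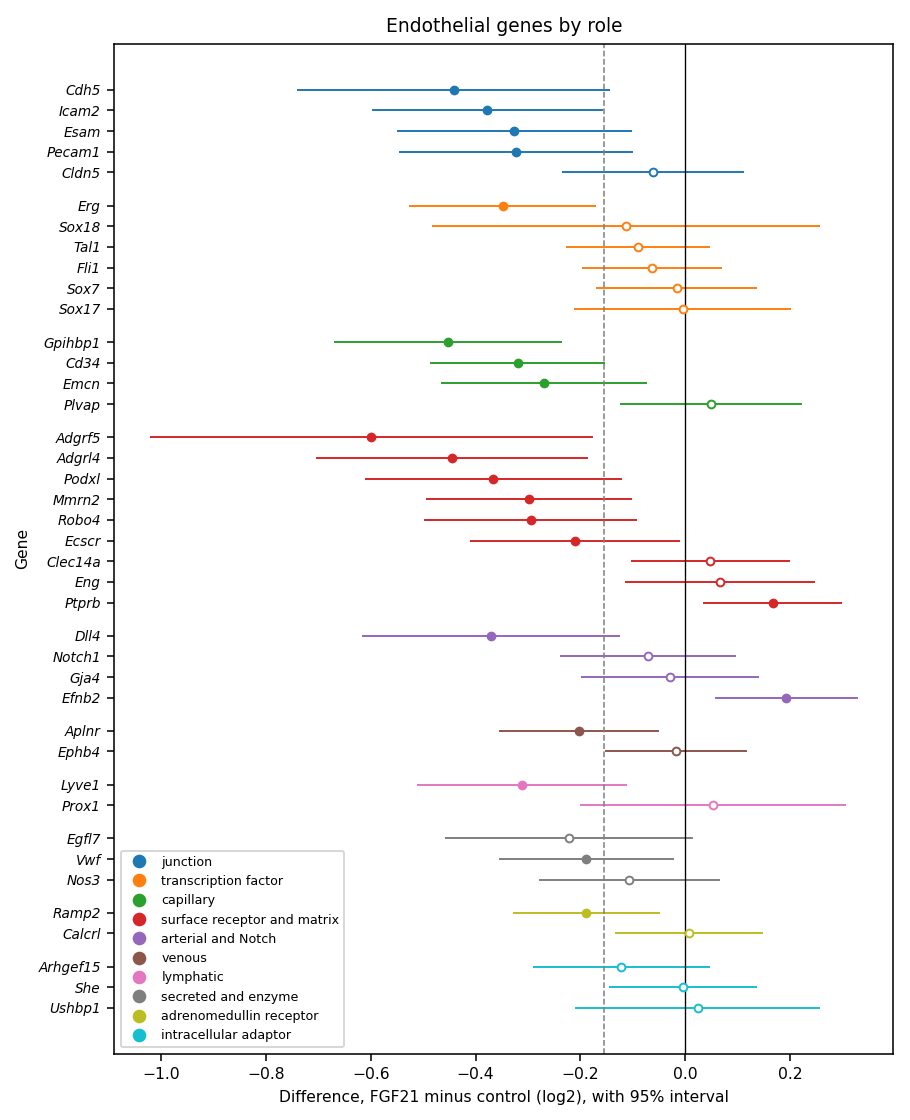
Difference of FGF21 minus control on the log2 scale with its 95% interval for the 40 genes, coloured by role; filled points have an unadjusted limma p under 0.05, the solid line is 0 and the dashed line the median of the 40 genes (-0.16). In the larger roles some genes lie below the dashed line and others near 0, and 2 filled points lie above 0.

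The differences were uneven within roles as well as between them. Medians were -0.33 for junction, -0.29 for capillary, -0.29 for surface, -0.19 for secreted, -0.13 for lymphatic, -0.11 for venous, -0.09 for adrenomedullin receptor, -0.08 for transcription factor, -0.05 for arterial and -0.00 for adaptor genes. Differences between roles were not tested. The 95% interval held the list median for 27 of the 40 genes. It lay wholly below that median for 5 (Icam2, Erg, Gpihbp1, Adgrl4 and Adgrf5) and wholly above it for 8 (Plvap, Ptprb, Clec14a, Eng, Efnb2, Ephb4, Calcrl and She). The same shares over all genes were not computed. The median over all genes (-0.01) lies above that of the list, so the 8 are not set apart from genes in general. Measured within each array against the mean of the other 39 genes, Cdh5, Pecam1, Erg, Cd34 and Adgrl4 lay lower on every FGF21 array than on every control, as 0.275% of all genes did against the mean of the 40. On the same measure 10 genes lay higher on every FGF21 array, among them Eng, Plvap, Sox7 and Gja4. Because the mean of the 40 was itself lower with FGF21, 42.7% of all genes did so too. For the same reason few genes can lie lower against that mean, so the 0.275% does not measure an excess among the 5.

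Brightness did not order the differences. Over the 40 genes, Pearson's r between mean value and difference was 0.02 and Spearman's coefficient -0.00, given as a description across genes that come from the same 6 arrays. Among the dimmest 14 genes, with means from 5.17 to 6.42, 6 were lower and the median was -0.12. Of these, 3 (She, Clec14a and Sox18) had means below 5.76, the lowest array median over all rows. The middle 13, from 6.46 to 7.56, had 7 lower and a median of -0.22. Of the brightest 13, from 7.66 to 9.67, 6 were lower and the median was -0.06, with Cdh5 and Adgrf5 beside Eng, Efnb2 and Ptprb. Over all genes in the same ranges, 6.65%, 4.43% and 2.11% were lower, with medians of -0.04, 0.02 and 0.06.

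**Figure D4:**
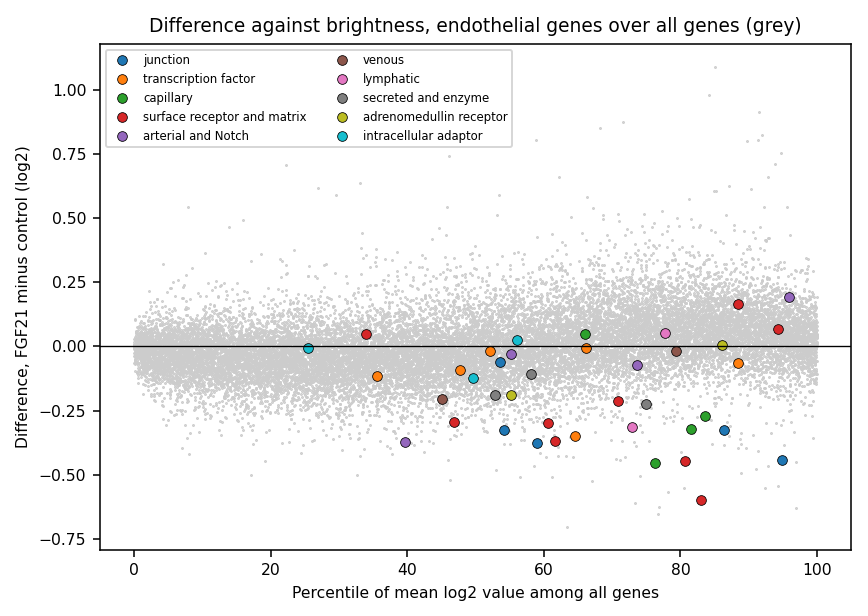
Difference of FGF21 minus control (log2) against the percentile of the mean log2 value, with the 40 endothelial genes coloured by role over all genes in grey. Endothelial genes reach down to -0.60 at high brightness, where the grey cloud sits slightly above 0, and genes near or above 0 occur along the whole axis.

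Endothelial genes outside the list did not all go the same way. Over all genes, 5.11% were lower and 6.59% higher at the same unadjusted threshold. Of 7 VEGF and TIE receptor genes, 2 were lower and 0 higher, with a median of -0.14. Kdr, the main VEGF receptor, read 6.85, 7.23 and 7.15 with FGF21 and 8.10, 7.60 and 7.36 without. Its groups were apart and it was 1.53-fold lower (-0.61 ± 0.17, SE). The difference was -0.41 without control replicate 1 and -0.29 with replicate 1 of both groups left out. Nrp1, a VEGF co-receptor, differed by -0.22, and by -0.14, past no threshold, without control replicate 1. Flt1, the decoy-like VEGF receptor, differed by -0.20 (95% interval -0.42 to 0.02), with -0.10 without control replicate 1 and -0.27, past the threshold, without control replicate 3. Tek, the angiopoietin receptor TIE2, differed by 0.00 (-0.18 to 0.18). Among 7 ligand genes, Angpt2, the TIE2 antagonist released by endothelium, was lower (-0.34 ± 0.08) and Vegfd higher (0.19 ± 0.08). The groups of Vegfd overlapped, and its p stayed under 0.05 in only 2 of the 6 fits that leave out an array.

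Of 29 further endothelial genes measured, 5 were lower and 4 higher, with a median of 0.00. Each count in this paragraph stands beside 5.11% of all genes lower and 6.59% higher. Esm1, a proteoglycan of tip cells, differed by -0.50 ± 0.11 (SE) and was the lowest. The other lower genes were Sele (-0.29), Cd36 (-0.21), Icam1 (-0.19) and Exoc3l2 (-0.18). Edn1, the vasoconstrictor endothelin 1, which cardiomyocytes also make, was higher by 0.31 ± 0.07, Aqp1, a water channel, by 0.23 ± 0.07 and Tm4sf1, a tetraspan membrane protein that many cell types express, by 0.27 ± 0.09. Jam2, a junctional adhesion molecule, was also higher, by 0.21 ± 0.07, with groups that did not overlap. Of 16 further transcription factor genes, 1 was lower (Etv2, the ETS factor of early endothelium, -0.24 ± 0.08) and 2 higher: Klf4 (0.34 ± 0.07) and Klf2 (0.15 ± 0.06), factors that flow induces in endothelium. In the Notch pathway list, 13 genes, the target gene Hey1 (-0.33 ± 0.08) and the ligand Jag2 (-0.28 ± 0.10) were lower, while Rbpj, the DNA-binding partner of Notch (0.31 ± 0.07), and Notch2 (0.18 ± 0.08) were higher. Averaged over all rows of the gene, Rbpj differed by 0.13, past no threshold. Of 4 measured adrenomedullin ligand and RAMP genes, Adm2 was higher (0.17 ± 0.07) and 0 were lower.

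Markers of other heart cells were read beside these genes. Over all genes, 5.11% were lower and 6.59% higher. For the labelled cell type, all 10 cardiomyocyte markers had signal on the arrays, the dimmest with a mean at the 73.5th percentile of all genes, and 0 of 10 were lower and 0 higher. All 10 fibroblast markers had signal too, with 0 of 10 lower and 0 higher. Probe sets differ in brightness, so the share of each cell type was not read from these levels. Of 9 pericyte and mural cell markers, 4 were lower: Kcnj8, a subunit of ATP-sensitive potassium channels (-0.65 ± 0.09, SE), Rgs5 (-0.49 ± 0.15), Abcc9 (-0.45 ± 0.13) and Vtn (-0.24 ± 0.08). Rgs5 differed by -0.28 without FGF21 replicate 1, and Abcc9 by -0.28 without control replicate 1. The other 5 were past neither threshold. The median of the 9 was -0.03, with 6 below 0 and 3 above. The mean of that list, which includes the 4 lower genes, was 7.78 to 7.92 with FGF21 and 7.97 to 8.14 without. Whether those 4 and the endothelial genes were lower for a common reason was not tested. Of 6 endocardial markers 0 were lower and 2 higher (Npr3 and Hapln1), while 3 had a difference below 0 and the median was -0.00. Npr3 and Hapln1 each kept p under 0.05 in 3 of the 6 fits that leave out an array. Of 8 epicardial and mesothelial markers 0 were lower and 3 higher, Krt19 by 0.31 ± 0.08. Smooth muscle markers included 1 higher gene, Myh11 (0.16 ± 0.06), and the 3 measured red cell and progenitor markers 1 lower, Epb42 (-0.21 ± 0.06). Fits that leave out an array were read for 27 of the genes outside the list that are named here as lower or higher. Jam2, Sele, Cd36, Icam1 and Exoc3l2 were not among the 27. Of the 27, 15 kept an unadjusted limma p under 0.05 in all 6 such fits, among them Kdr, Esm1, Klf4 and Kcnj8. The other 12 did not: Nrp1, Vegfd, Tm4sf1, Etv2, Klf2, Jag2, Notch2, Adm2, Ptprc, Npr3, Hapln1 and Myh11.

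**Figure D5:**
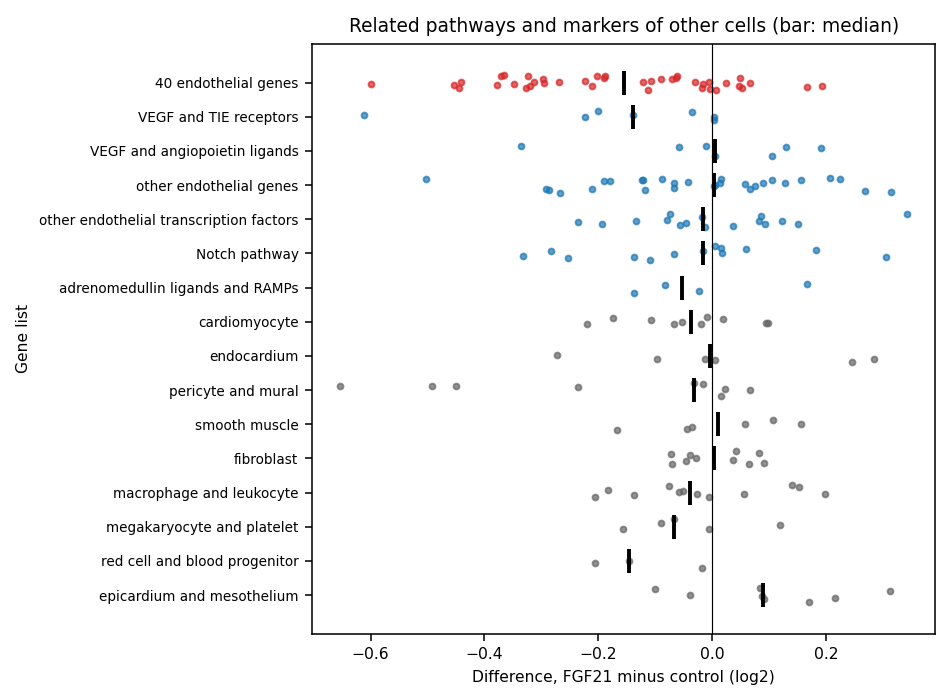
Difference of FGF21 minus control (log2) for every measured gene of each list, 1 point per gene, with a bar at the list median: the 40 endothelial genes in red, related pathway lists in blue and markers of other cells in grey. The endothelial median (-0.16) and that of the VEGF and TIE receptors (-0.14) lie left of 0, as does that of the 3 red cell and progenitor markers (-0.15). The epicardial and mesothelial median (0.09) lies right of 0, while the fibroblast and other endothelial lists centre on 0.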

How the data were processed

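The authors deposited 1 log2 value per probe set and array. Per the submitters' processing notes, they ran RMA (robust multi-array averaging) through affy in R 3.2.2. That method equalises array distributions and shrinks differences where signal is dim. The chip definition and the build used were not given in the sources used here. Of 41345 rows, 23521 had 1 gene symbol in the platform annotation, 1814 had more than that and 16010 were unnamed. A gene with several rows was read from its brightest, by mean over the arrays, leaving 22180 genes.

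FGF21 minus control was fitted over all genes with limma 3.58.1 in R 4.3.3 (lmFit, eBayes, no covariate, two-sided), with Benjamini-Hochberg adjustment over all genes and tested on simulated data. Intervals are at 95%. The number of arrays, 3 per group, limits the precision. The genes, their roles and the other lists were chosen with earlier results of these data known. Values on every array are given for, per role, the gene of smallest p and a gene with a difference near or above 0, besides others that were picked after their values were seen. Outside the list, the rule named up to 3 genes of smallest p per pathway list, with Kdr, Flt1 and Tek, and 1 per cell type list; further genes there were picked after their values were seen. Alternatives were a replicate block, leaving out arrays, other row rules, filters, normalizations, priors and statistics.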

Additional observations from a re-analysis of the deposited data

How the results depend on the processing

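Over 17 alternative settings, 0 of the 40 endothelial genes reached a limma adjusted p of 0.05, and the smallest adjusted p was 0.0832, for Gpihbp1 when genes dimmer than the median were dropped. Over all genes, that setting gave 58 genes past an adjusted p of 0.05, dropping genes below the first quartile 26, and a trended, robust prior 16, with at most 5 in any other. The count of 19 lower genes became 10 with an ordinary equal-variance statistic, 9 of them among the 19, and 8 with replicate 1 of both groups left out, an alternative added after the data were seen. Across fits that leave out 1 array it ran from 15 to 21, the median from -0.19 to -0.13 and the genes below 0 from 30 to 33. Under every other setting these 3 values moved by less than 1.5 times or the spread between replicates. A threshold of 0.01 left 13 lower.

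None of the 21 genes past p 0.05 changed sign in any of the 17 settings. Signs that turned belonged to 13 listed genes past neither threshold, with differences from -0.11 (Sox18) to 0.07 (Eng), and to Tek. Median centring of the arrays, which moves all differences up by 0.02, gave 0.0039 for Sox7, 0.0151 for Sox17, 0.0023 for Ephb4 and 0.0157 for She. Quantile normalization applied again gave -0.0013 for Prox1, -0.0414 for Tek, -0.0624 for Calcrl and 0.0454 for She. Array weights gave -0.0297 for Ushbp1. Leaving out replicate 1 of both groups gave 0.0018 for Sox7, 0.17 for Sox18, 0.0028 for Gja4 and -0.11 for Ushbp1. With 1 array left out, the range was -0.10 to 0.0071 for Cldn5, -0.0508 to 0.0299 for Sox7, -0.10 to 0.0643 for Sox17, -0.30 to 0.0368 for Sox18, -0.0219 to 0.0849 for Plvap, -0.0039 to 0.0911 for Clec14a, -0.0151 to 0.12 for Eng, -0.10 to 0.0274 for Gja4, -0.0671 to 0.19 for Prox1, -0.0246 to 0.0429 for Calcrl, -0.11 to 0.10 for Ushbp1, -0.0411 to 0.0205 for She, and -0.0597 to 0.0569 for Tek. The cause was not tested.

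The labels do not say whether samples with the same replicate number share a preparation. The correlation between same-numbered arrays, as deviations from group means, was 0.103, 0.158 and 0.0065 for numbers 1, 2 and 3, and 4 of 6 arrays correlated best with their own number. With the replicate number as a block, 19 genes were lower and the median stayed at -0.16.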

Other observations

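Among genes outside the list, the 5 whose values followed Cdh5 most closely over the 6 arrays were Olfr1076, Gramd3, Cpt2, Shroom4 and Fxyd6, with Pearson's r from 0.987 to 0.997. The arrays hold both groups, so r includes the difference between them, and with 22180 genes compared over 6 arrays high values occur widely. Olfr1076, an odorant receptor gene with a mean value of 4.98, headed the order.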
